A study of Mus musculus with 70 samples.

Results

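A set of 8 genes that midbrain dopamine neurons use was followed through bulk RNA-Seq of the mouse brain: Th, Slc6a3, Ddc, Slc18a2, Pitx3, Nr4a2, Aldh1a1, and Ret. They were chosen by name, for their function in these neurons, with earlier results of these data known. All 8 were found among the 34677 genes of the gene-level TPM table, and each was read in all 70 libraries, which fall into 24 groups. TPM is a level scaled for transcript length and for the library as a whole, so values of different genes can be compared within a library.

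The study profiled brain regions that take part in energy balance. The 57 adult libraries came from 18 regions of C57BL/6 mice at P56, given as males of the substrain C57BL/6NTac in the methods: anterior cingulate area (ACA), nucleus accumbens (ACB), arcuate hypothalamic nucleus (ARH), cerebellar nuclei (CBN), central lobule II (CENT2), culmen lobules IV-V (CUL4-5), dorsomedial nucleus of the hypothalamus (DMH), dorsal-vagal complex (DVC), entorhinal area (ENT), flocculus (FL), frontal pole cortex (FRP), lateral hypothalamic area (LHA), nucleus of the solitary tract (NTS), parabrachial nucleus (PB), paraventricular hypothalamic nucleus (PVH), uvula (UVU), ventromedial hypothalamic nucleus (VMH), and ventral tegmental area (VTA). Another 9 libraries came from E14.5 embryos, likewise C57BL/6NTac, from forebrain (F, 1 library), midbrain (M), hindbrain (H), and terminal and peduncular hypothalamus (THy/PHy), and 4 libraries came from the mouse embryonic stem cell (mESC) clones B6-1 and B6-2, derived from C57BL/6 mice. The labels give no mutation or treatment for any group. Adult and embryonic samples were punches of frozen sections, and each library pooled tissue of several mice, with the exception of 1 ACB library made from 1 mouse. The replicates of a region are therefore separate pools, and a punch can hold tissue around the named region. Libraries of different regions can share mice, and p-values measure the spread between pools. The study lists the collection batches of each region without naming libraries, so batch was tied to no library and entered no fit. Adult samples, embryos, and mESC shared no batch, so developmental stage and batch cannot be told apart. In bulk tissue, fewer cells of a type and less RNA per cell cannot be told apart either.

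Total estimated counts ran from 13409041 to 20647884 in the adult libraries and from 9074581 to 22229582 in the embryonic ones. The first VTA replicate stood apart, with 39.62% of its TPM on the 13 mitochondrial genes, against 2.69% to 22.56% in the other 69 libraries. VTA libraries are for this reason shown singly throughout. CBN replicates 2 and 3, CENT2 replicates 1 and 2, and FRP replicate 3 held transcripts typical of neighbouring tissue, and their values are given below. They are not the only libraries in which levels of such transcripts were uneven between replicates. In VTA, markers of the labelled region were present: En1, a transcription factor of the midbrain, was at 25.1, 43.4, and 49.2 TPM in replicates 1 to 3, and Foxa2, a factor of the ventral midbrain, at 10.8, 16.8, and 13.7 TPM.

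Dopamine is made from tyrosine. Tyrosine hydroxylase (Th) makes L-DOPA, aromatic L-amino acid decarboxylase (Ddc) turns L-DOPA into dopamine, the vesicular monoamine transporter (Slc18a2) loads dopamine into synaptic vesicles, and the dopamine transporter (Slc6a3) takes it back up from outside the cell. Noradrenaline neurons use Th, Ddc, and Slc18a2 too and add Dbh, whereas serotonin neurons use Ddc and Slc18a2 with Tph2 in place of Th. The transcription factors Pitx3 and Nr4a2 act in the formation and upkeep of midbrain dopamine neurons, Aldh1a1 oxidises aldehydes in a ventral subset of them, and Ret is the receptor tyrosine kinase of the GDNF family of neurotrophic factors.

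Promoters of 7 of the 8 members were taken from RefSeq (GRCm38.p6, 250 bases before to 50 bases after the annotated start), 9 promoters in all. The motifs searched on both strands were the cyclic AMP response element (CRE, TGACGTCA), the NBRE bound by the Nr4a family (AAAGGTCA), and the bicoid-type homeodomain site (TAATCC). CRE letters stood in the promoters of Th and Slc18a2, and in 1.79% of all 32851 promoters of that length. NBRE letters stood, on the opposite strand, in the upstream promoter of Ddc, and in 1.51% of all promoters. TAATCC was in none of the 9 promoters and in 7.06% of all promoters. The CRE of Th began 45 bases before the annotated start and that of Slc18a2 began 4 bases before it, while the NBRE of Ddc began 73 bases before its start. The sequences with a match are printed 5′ to 3′ on the strand of the gene with the motif in capitals, together with the downstream promoter of Aldh1a1, whose transcript took a different share in VTA than elsewhere (below).
Th, chr7:142899946-142900245, minus strand: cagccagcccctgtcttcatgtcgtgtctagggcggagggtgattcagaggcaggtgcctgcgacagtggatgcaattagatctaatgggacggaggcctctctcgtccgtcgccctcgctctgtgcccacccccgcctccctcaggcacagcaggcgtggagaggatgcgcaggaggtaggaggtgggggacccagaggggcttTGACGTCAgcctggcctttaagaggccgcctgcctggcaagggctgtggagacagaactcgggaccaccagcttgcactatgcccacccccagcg
Slc18a2, chr19:59260628-59260927, plus strand: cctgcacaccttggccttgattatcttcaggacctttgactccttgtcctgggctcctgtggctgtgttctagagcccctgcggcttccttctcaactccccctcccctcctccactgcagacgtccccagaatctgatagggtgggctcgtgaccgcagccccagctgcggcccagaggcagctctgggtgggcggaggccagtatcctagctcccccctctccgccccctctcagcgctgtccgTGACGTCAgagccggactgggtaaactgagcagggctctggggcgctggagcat
Ddc, chr11:11898095-11898394, minus strand: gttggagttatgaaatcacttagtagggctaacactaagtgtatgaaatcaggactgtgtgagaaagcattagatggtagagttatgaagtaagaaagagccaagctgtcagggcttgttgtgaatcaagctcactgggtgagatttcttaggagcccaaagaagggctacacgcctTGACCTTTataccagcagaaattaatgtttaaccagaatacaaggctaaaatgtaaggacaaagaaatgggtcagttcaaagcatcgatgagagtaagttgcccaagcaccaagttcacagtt
Aldh1a1, chr19:20601718-20602017, plus strand: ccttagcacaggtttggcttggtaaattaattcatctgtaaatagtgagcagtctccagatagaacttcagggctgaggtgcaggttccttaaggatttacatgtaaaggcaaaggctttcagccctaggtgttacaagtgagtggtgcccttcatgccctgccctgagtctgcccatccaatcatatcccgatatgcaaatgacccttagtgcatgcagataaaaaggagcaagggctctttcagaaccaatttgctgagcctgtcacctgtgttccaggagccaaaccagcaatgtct

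The first question was where the genes of dopamine synthesis and transport were expressed. Th (ENSMUSG00000000214.11, GRCm38 chr7:142892752-142931128, minus strand) was at 239, 778, and 901 TPM in the 3 VTA replicates. The second highest mean was that of PB with 79.1 ± 22.2 TPM (SD, n = 3), 8.08-fold lower than the VTA mean of 639 ± 352 TPM (SD, n = 3). No library of another adult region overlapped the VTA libraries, and the highest was VMH replicate 2 with 105 TPM. Behind VTA, the order of means was PB, VMH, ARH, and DMH (56.5 ± 16.6 TPM, n = 4), and none of these neighbours differed from the next by more than the larger SD of the pair. UVU, a cerebellar lobule, held 44.1, 39.0, and 27.9 TPM, above CUL4-5 and CENT2, whose means were 3.01 and 1.87 TPM. Among adult regions Th was lowest in ACA, with 0.887 ± 0.265 TPM (SD, n = 3), and ENT held 2.59 ± 1.09 TPM (SD, n = 3). FRP, also a cortical region, held 28.6 ± 22.0 TPM (SD, n = 3), with 54.0 TPM in replicate 3. Olfactory bulb genes were present in the FRP libraries (below), and their part in this level was not tested. Th was at or near 0 in mESC. Over all 24 groups, 6 of the 23 pairs of neighbours in the order of means differed by more than the larger SD of the pair. VTA held 55.3% of the Th TPM summed over the 24 group means.

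Slc6a3 (ENSMUSG00000021609.6, chr13:73536747-73578672, plus strand) was the member most restricted to VTA by this share, with 95.7% of the summed TPM. VTA replicates held 173, 521, and 556 TPM. ARH followed with 7.91, 5.54, and 7.39 TPM, 60.0-fold lower than VTA by the ratio of means, and LHA with 1.76, 3.17, and 4.02 TPM. The steps from VTA to ARH and from ARH to LHA both exceeded the larger SD of the pair, and in neither did libraries overlap. In 7 of the 54 other adult libraries Slc6a3 was at 0, and the median over all 54 was 0.256 TPM.

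Ddc (ENSMUSG00000020182.16, chr11:11814101-11898144, minus strand) was at 198, 440, and 571 TPM in VTA, 4.95-fold higher by means than in ARH, where the replicates held 93.4, 66.7, and 84.5 TPM. VMH (66.8 ± 2.76 TPM, n = 2), PB (65.8 ± 25.8 TPM, n = 3), and DMH (42.1 ± 15.9 TPM, n = 4) came next. Slc18a2 (ENSMUSG00000025094.8, chr19:59260896-59296012, plus strand) was at 84.1, 146, and 183 TPM in VTA, 3.10-fold higher than in PB (45.9, 27.9, and 59.6 TPM), with ARH at 33.9, 23.7, and 38.4 TPM. For both genes the VTA libraries lay above every other adult library. VTA took smaller shares of their summed TPM than for Slc6a3, with 40.3% for Ddc and 37.0% for Slc18a2.

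**Figure D1:**
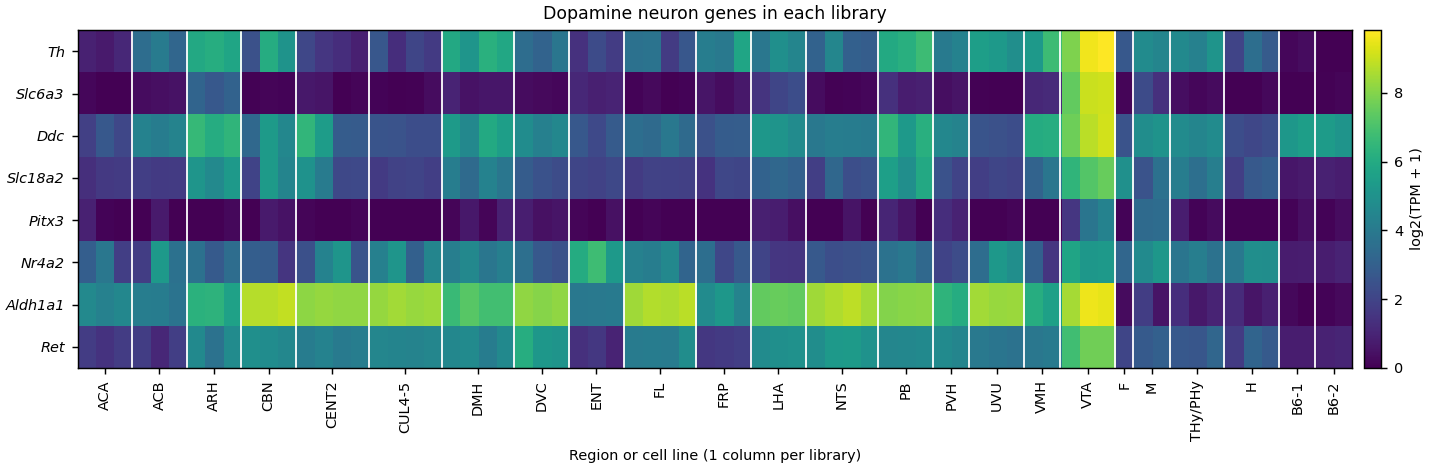
Levels of the 8 genes as log2(TPM + 1), with genes in rows and 1 column per library, white lines parting the 24 groups. Slc6a3 is bright in the VTA columns and faint in ARH, Th and Ddc also show in hypothalamic regions and PB, and Aldh1a1 is high across cerebellum and hindbrain and near 0 in embryo and mESC.

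The transcription factors were lower and differed from each other. Pitx3 (ENSMUSG00000025229.15, chr19:46135685-46148326, minus strand) was at 1.94, 13.3, and 19.2 TPM in VTA, from 26, 144, and 157 estimated counts. It was at 0 in 27 of the 54 other adult libraries and at most 1.45 TPM, in PVH replicate 1. Adult VTA and embryonic M were the 2 highest groups, and the difference between their means, 11.5 ± 8.78 and 9.85 ± 0.298 TPM, was smaller than the SD of VTA. Nr4a2 (ENSMUSG00000026826.13, chr2:57106830-57124003, minus strand) was not highest in VTA. ENT replicates held 64.6, 108, and 39.2 TPM and VTA replicates held 52.2, 36.1, and 37.3 TPM, so that these groups overlapped. Of the 54 other adult libraries, 5 were above the lowest VTA library. Nr4a2 also varied widely between replicates of single regions, as in ACB with 2.45, 37.4, and 11.6 TPM.

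Aldh1a1 (ENSMUSG00000053279.8, chr19:20492715-20643465, plus strand) was at 12.25 TPM or more in every adult library. VTA replicates held 356, 768, and 695 TPM, and CBN, the next region, 422, 428, and 484 TPM, so that VTA replicate 1 lay below all CBN replicates. Of the 54 other adult libraries, 8 were above VTA replicate 1. This overlap depended on the scale used, and the cause was not tested. In TPM rescaled without mitochondrial genes, VTA replicate 1 was at 590.0 against at most 536.7 elsewhere, in CBN replicate 3. In counts scaled to the library total (CPM), a total that includes mitochondrial counts, it was at 491.6 against 358.9. On both scales, 0 of the 54 libraries were above it. The means fell from 397 ± 46.0 TPM in FL (SD, n = 4) and 386 ± 50.8 TPM in NTS (SD, n = 4) to 14.9 ± 0.675 TPM in ENT (SD, n = 3). Ret (ENSMUSG00000030110.13, chr6:118151745-118197718, minus strand) was at 112, 207, and 208.1 TPM in VTA, above every other adult library, with DVC next at 67.6, 35.2, and 32.9 TPM and NTS at 27.2, 39.0, 40.3, and 31.1 TPM. The DVC and NTS means differed by less than the larger SD. Forebrain cortex and ACB held little Ret, with means from 1.51 TPM in ENT to 2.23 TPM in FRP.

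**Figure D2:**
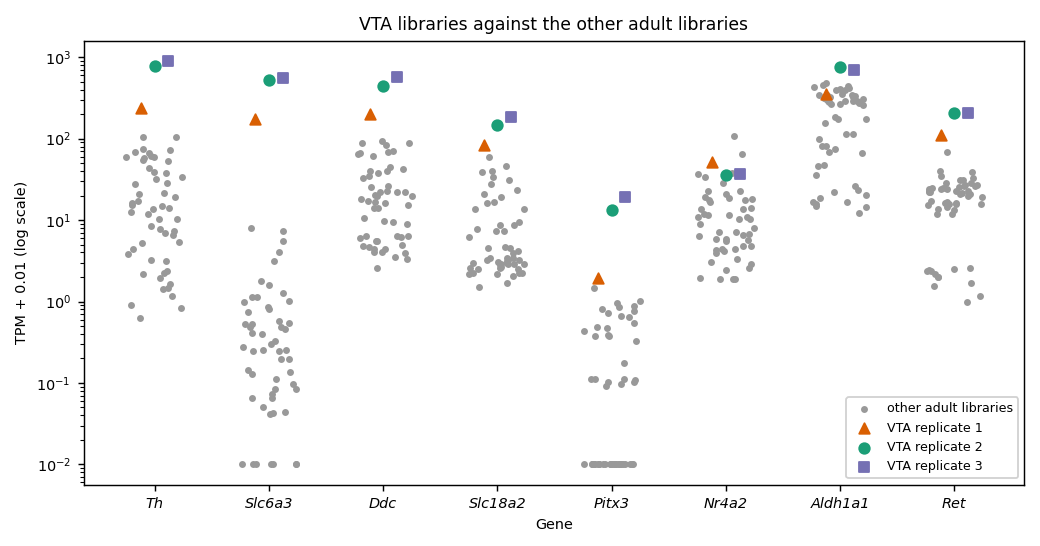
TPM of each gene, plotted as TPM + 0.01 on a log axis, in the 3 VTA libraries (coloured symbols) and the 54 other adult libraries (grey). For Th, Slc6a3, Ddc, Slc18a2, Pitx3, and Ret all VTA symbols lie above all grey points, while Nr4a2 and Aldh1a1 overlap on this scale, which includes mitochondrial genes.

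Of the 8 members, 6 had every VTA library above every other adult library. Over the 17955 genes with a mean of at least 1 TPM in at least 1 adult region, 34 had this pattern, a share of 0.189%. With Aldh1a1 the count was 7 in TPM without mitochondrial genes (0.324% of all genes) and in CPM (0.442%), scales added to this count after seeing the data. In an edgeR quasi-likelihood test across 19960 genes, with VTA compared to the mean of the other 17 adult regions, genes were called where the adjusted p was below 0.05 and the change exceeded 1 on the log2 scale in size. Here all 8 members were called higher, against 6.90% of all genes. Their median log2 fold change was 4.83, and that of all genes −0.005. The log2 fold change was 10.79 ± 0.13 (SE) for Slc6a3 (adjusted p = 3.28e-50), which ranked second of all genes, and 7.09 ± 0.39 for Pitx3 (adjusted p = 4.21e-19). Both sizes depend on how a fit treats regions at or near 0. For Th the fit gave 5.86 ± 0.21, for Slc18a2 4.94 ± 0.22, for Ddc 4.71 ± 0.21, and for Ret 4.31 ± 0.12. Aldh1a1, at 3.09 ± 0.11, and Nr4a2, at 3.00 ± 0.29, had the smallest changes, and the fit compares with the mean of log levels over regions, so a gene can be called although libraries of another region reach the VTA level, as those of ENT did for Nr4a2. Without the 5 libraries named above for transcripts of neighbouring tissue, an alternative chosen after seeing the data, 8 members were again called higher. This fit kept other libraries with uneven levels of such transcripts, as of Tph2 in PB and of choroid plexus genes in NTS (below). It therefore does not cover all neighbouring tissue.

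VTA replicate 1 was lower than its partners for most members, but not by a common factor. The ratio of replicate 1 to the mean of replicates 2 and 3, in TPM rescaled without mitochondrial genes, was 0.421 for Th, 0.477 for Slc6a3, 0.580 for Ddc, 0.756 for Slc18a2, 0.725 for Aldh1a1, and 0.800 for Ret. Pitx3 had the lowest ratio of the members, 0.176, and Nr4a2 the highest, 2.11. The median over all 11577 genes with a VTA mean of at least 5 on this scale was 0.732, so removal of the mitochondrial share did not bring the typical gene to a ratio of 1. With the mitochondrial genes kept, the median was 0.489 and the ratio for Th was 0.284. On counts scaled to the library total, the ratios were 0.4297 for Th and 1.89 for Nr4a2. The midbrain factor En1 had a rescaled ratio of 0.803 and the dopamine receptor Drd2, an autoreceptor of these neurons, 1.05. Other transcripts went both ways. The ratio was 0.260 for Gad1 and 0.272 for Slc32a1, genes of inhibitory neurons, 0.0544 for Tph2, and 0.00686 for Slc17a7, but 0.834 for the myelin gene Mbp, 1.25 for Slc17a6, and 1.32 for the neuronal gene Snap25. The part of punch position or RNA quality in this library was not tested.

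Ratios between members within a library differed between regions, with overlaps. Slc6a3 per Th, as a ratio of TPM, was 0.726, 0.669, and 0.617 in VTA replicates 1 to 3. It was 0.0811 to 0.138 in ARH, 0.00809 to 0.0257 in PB, and at most 0.000921 in UVU. LHA, at 0.110 to 0.192, overlapped ARH. Of the 51 other adult libraries with at least 1 TPM of Th, ENT replicate 1 was the 1 within the VTA range, at 0.696 with Th at only 1.62 TPM. Ddc per Th was 0.566 to 0.831 in VTA and 0.976 to 1.58 in ARH, and only 0.110 to 0.142 in UVU, where Ddc was at 4.82, 4.46, and 3.97 TPM. For this ratio 10 of the 51 libraries were within the VTA range, among them all 4 of DMH (0.665 to 0.823), and FRP replicate 3, at 0.119, was within that of UVU. FRP replicates 1 and 2, at 0.258 and 0.425, lay above the UVU range and below that of PB, 0.523 to 1.44. Thus Th came with less Ddc in the libraries of UVU and FRP than in those of VTA, ARH, and PB.

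The second comparison asked how the hypothalamic region with the tuberoinfundibular dopamine neurons, ARH, differed from the other 17 adult regions. There, 4 members were called higher (edgeR, 8.58% of all genes) and Aldh1a1 was called lower (3.92% of all genes). The genes of synthesis and transport rose together: Slc6a3 by a log2 fold change of 3.97 ± 0.21 (adjusted p = 8.91e-22), Slc18a2 by 2.05 ± 0.29, Ddc by 1.94 ± 0.27, and Th by 1.83 ± 0.30. Aldh1a1 had a log2 fold change of −1.12 ± 0.17, and without ARH replicate 3 this was −0.88 and under the fold threshold. Nr4a2 (−0.15 ± 0.41), Ret (0.34 ± 0.18), and Pitx3, with 0 to 0.166 TPM in the ARH libraries, were not called. The median of the members was 1.09, and of all genes −0.01. All 4 calls were lost when the reference was all other adult libraries taken as 1 group. The mean of that group holds the VTA libraries at their full level, and the standard errors were larger as well (Th −0.21 ± 1.43, Slc6a3 −2.295 ± 2.78). Ddc (0.67 ± 1.03) and Slc18a2 (0.60 ± 1.09) stayed positive. The cause of the lost calls was not tested. In the direct comparison, all 8 members were higher in VTA than in ARH (edgeR, 7.99% of all genes), from 2.62 ± 0.46 for Ddc and 2.73 ± 0.50 for Slc18a2 to 6.44 ± 0.32 for Slc6a3. Of the 6 genes of arcuate and periventricular dopamine neurons, 4 were called higher in ARH and 1 lower, with a median of 2.34. Of 6 pituitary markers, 5 were called higher in ARH, with a summed level of 76.1 to 117 TPM there and 1.53 to 7.58 TPM in VTA, and Hdc, the enzyme of histamine neurons, which also use Slc18a2, was at 47.9 to 96.9 TPM in ARH. All 5 oligodendrocyte markers were called lower in ARH (median −1.97), with a summed level of 864 to 1382 TPM there, and all 5 were higher in VTA than in ARH (median 3.54). In ARH, 4 of 5 cerebellar granule cell markers were called lower and 2 of 5 choroid plexus markers higher. The part of these cells in the ARH levels was not tested.

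The NTS and the DVC hold noradrenaline and adrenaline neurons, which share Th, Ddc, and Slc18a2 with dopamine neurons. The 7 libraries of both regions held Th at 6.496 to 21.5 TPM, Ddc at 14.1 to 26.5 TPM, and Slc18a2 at 2.54 to 8.60 TPM. The medians of the 54 adult libraries outside VTA, these 7 included, were 13.7, 16.8, and 3.43 TPM. Each range held its median, but for Th only NTS replicate 2, at 21.5 TPM, was above it. All 5 noradrenaline and adrenaline genes were called higher there (edgeR, median 5.22). Against the other 16 adult regions, Ret (1.68 ± 0.11, adjusted p = 2.71e-18) and Aldh1a1 (1.54 ± 0.09, adjusted p = 1.84e-20) were the 2 members called higher (edgeR, 5.61% of all genes), and Slc6a3 (−1.76 ± 0.53) was called lower (2.74% of all genes). Ddc had a log2 fold change of −0.13, with a 95% interval from −0.60 to 0.34, and Th of −0.72, with an interval from −1.28 to −0.17. The median of the members was −0.37, and of all genes 0.00. Both calls of higher members were lost against all other adult libraries as 1 group. All 5 oligodendrocyte markers (median 1.77) and all 5 choroid plexus markers (median 2.24) were called higher as well. The summed choroid plexus level ran from 5.79 to 10670 TPM in NTS, highest in replicate 1, and from 6.47 to 289 TPM in DVC. With 1 library left out at a time, Ret stayed between 1.47 and 1.77 and Aldh1a1 between 1.498 and 1.573. The part of oligodendrocytes in these levels was not tested. In the direct comparison, all 8 members were higher in VTA (edgeR, 3.75% of all genes), from 1.55 ± 0.16 for Aldh1a1 to 11.76 ± 0.31 for Slc6a3. Aldh1a1 was under the fold threshold there when TPM was tested in place of counts (0.81 with limma).

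Th outside VTA came with different partners in different libraries. In PB, Th at 61.3, 72.1, and 104 TPM came with the noradrenaline enzyme Dbh at 89.0, 92.7, and 163 TPM and the noradrenaline transporter Slc6a2 at 41.6, 44.8, and 84.6 TPM. The PB libraries also held Tph2, the serotonin-making enzyme of the brain, at 79.8, 8.69, and 31.8 TPM, and Ddc was highest, at 88.3 TPM, in the replicate with the most Tph2. Dbh was 0 in all 3 VTA libraries, and the summed level of the 5 noradrenaline and adrenaline genes was 0 to 0.0331 TPM there. In CBN, Th and Dbh were low in the same replicate, with Th at 4.38, 66.7, and 31.6 TPM and Dbh at 2.32, 114, and 57.5 TPM, while Slc18a2 was at 2.94, 39.6, and 20.6 TPM. Replicates 2 and 3 of CBN were thus unlike replicate 1 in all 3 genes.

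In CENT2, another cerebellar lobule, replicates 1 and 2 held Ddc at 87.5 and 42.1 TPM and Slc18a2 at 31.5 and 16.2 TPM, with Tph2 at 146 and 65.0 TPM and Th at 3.25 TPM or less. Replicates 3 and 4 held Ddc at 6.29 and 6.12 TPM and Tph2 at 0.270 and 3.27 TPM. Serotonin transcripts and Ddc were therefore high in the same replicates. In FRP, replicate 3 had Th at 54.0 TPM, against 17.01 and 14.8 TPM in the others, with Ddc no higher than 6.43 TPM in any replicate. The olfactory bulb genes Doc2g, Cdhr1, Eomes, and Tbx21, a list added after the values had been seen, summed to 328 TPM in FRP replicate 3. Doc2g was at 168 TPM there and at 19.4 and 31.2 TPM in replicates 1 and 2. In every one of these libraries, the part of neighbouring tissue in the punch was not tested.

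**Figure D3:**
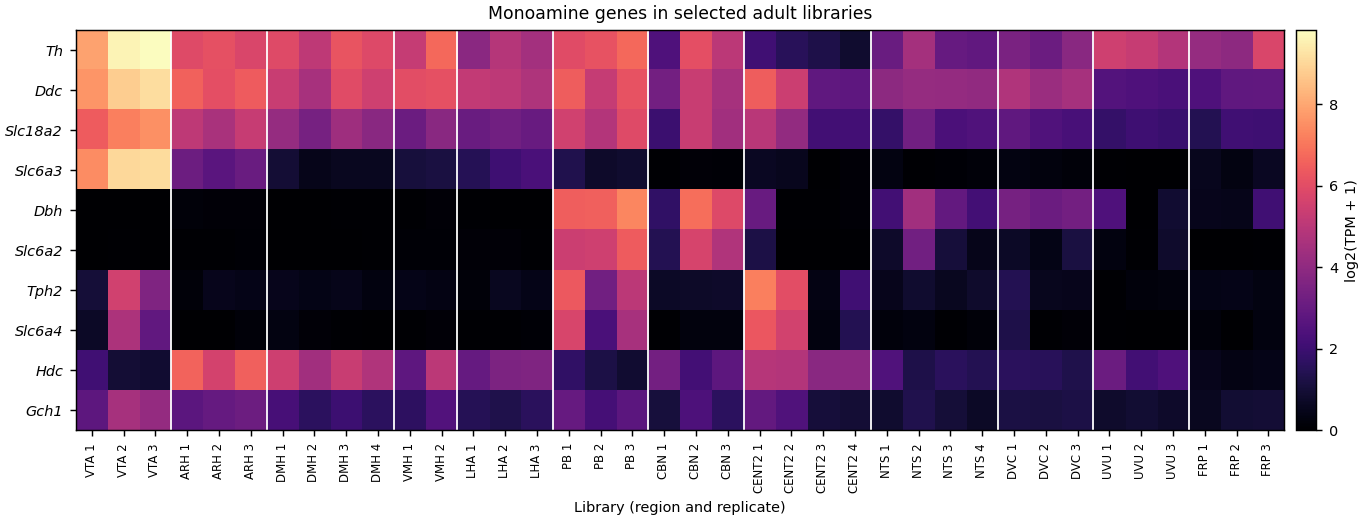
Levels of 10 monoamine genes as log2(TPM + 1), with genes in rows and libraries of 12 adult regions in columns. Th is joined by Slc6a3 in VTA, by Dbh and Slc6a2 in PB and in CBN replicates 2 and 3, and Ddc is joined by Tph2 and Slc6a4 in CENT2 replicates 1 and 2.

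DMH and VMH, near ARH in the hypothalamus, held Th and Ddc with less Slc6a3 than ARH. DMH had Th at 59.1, 34.2, 74.6, and 57.9 TPM and Ddc at 39.7, 22.8, 61.4, and 44.5 TPM, with the replicates in the same order for both genes apart from the middle pair, and Slc6a3 at 0.986 TPM or less. The VMH replicates were at 37.8 and 105 TPM for Th and at 64.9 and 68.8 TPM for Ddc, with Slc6a3 at 1.14 to 1.26 TPM. LHA had less Th, 14.0 to 28.7 TPM, with the third highest mean of Slc6a3 over all groups (2.98 ± 1.14 TPM, n = 3). VMH replicate 2 also held more Ghrh, a gene of arcuate neurons, with 56.1 TPM against 12.9 TPM in replicate 1.

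Genes that work with the members were taken from lists of known function, likewise chosen with earlier results of these data known. They were tested in VTA against the other adult regions, where 6.90% of all genes were called higher and 3.64% lower. Of 7 genes of dopamine synthesis, transport, and breakdown, 2 were called higher: Slc10a4, a vesicular protein of monoamine and cholinergic neurons (5.87 ± 0.41), and Gch1, the first enzyme of tetrahydrobiopterin synthesis, the cofactor of Th (3.66 ± 0.21). The later enzymes Pts (0.06 ± 0.09) and Spr (0.07 ± 0.13) and the breakdown enzymes Maoa (0.49 ± 0.08) and Maob (0.22 ± 0.15) were not called. The median of the list was 0.49. Of 10 midbrain dopamine neuron factors, 9 were called higher, with Foxa2 (10.31 ± 0.34), Foxa1 (8.69 ± 0.25), and En1 (7.36 ± 0.26) first and a median of 4.05. Sox6 was the exception, at 0.34 ± 0.14 (edgeR adjusted p = 0.0506).

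Of 14 receptors, channels, and peptides of these neurons, 9 were called higher, led by the nicotinic receptor subunits Chrna6 (7.97 ± 0.24) and Chrnb3 (6.82 ± 0.27) and the guanylate cyclase Gucy2c (6.41 ± 0.19), with a median of 3.57. Calb1, named after its value was seen, was the single gene called lower (−1.05 ± 0.25). Of the 8 ligands and co-receptors of Ret, the co-receptor Gfra1 (1.69 ± 0.21) and the ligand Nrtn (1.54 ± 0.44) were called higher, and the median was −0.03. Gfra1 was at 21.7, 54.4, and 52.6 TPM in VTA replicates 1 to 3, and Gdnf was at 0.231 TPM or less. Gfra1 and Ret were both lowest in replicate 1, where most genes were low in TPM. There, the median gene with a VTA mean of at least 5 TPM was at 0.489 of the mean of replicates 2 and 3. Relatives of the members moved apart. Aldh1a7 (4.39 ± 0.23) was called higher, while Nr4a3 (−2.02 ± 0.43), Nr4a1 (−1.57 ± 0.47), and Aldh1a3 (−1.18 ± 0.46) were called lower. The list of 6 relatives had a median of −0.44. Aldh1a7 is close in sequence to Aldh1a1, and its value is uncertain as far as short reads of both could be exchanged.

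Genes of other monoamine neurons gave mixed results. None of the 5 noradrenaline and adrenaline genes was called in VTA by edgeR, with 0 at an unadjusted p under 0.05. Their median log2 fold change was −3.12, and most were at 0 in every VTA library. In the direct comparison with NTS and DVC, edgeR called all 5 lower in VTA (median −7.50), with 486 of all 19960 genes. Against the other adult regions, DESeq2 called 2 of the 5 lower and limma on log2(TPM + 0.5) also 2. None of the 2 histamine genes was called by edgeR, with 1 at an unadjusted p under 0.05, while limma called 2 lower and DESeq2 0. Slc6a4 (6.44 ± 0.56), Tph2 (5.04 ± 0.45), and Fev (4.19 ± 0.67), 3 of 4 serotonin genes, were called higher in VTA, and the median of the list was 4.61. Tph2 was at 1.00, 45.1, and 11.3 TPM in VTA replicates 1 to 3. Th was highest in replicate 3 and Tph2 in replicate 2. The part of serotonin neurons, which also use Ddc and Slc18a2, in the VTA levels of these genes was not tested. Of 5 other monoamine transporter and dopamine receptor genes, Drd3 (1.58 ± 0.48) and Slc18a1 (1.35 ± 0.28) were called higher and Drd5 (−1.16 ± 0.30) lower. Of 6 genes of arcuate and periventricular dopamine neurons, Ghrh (1.10 ± 0.40) was called higher and Dlx1 (−3.39 ± 0.70) lower. All 5 oligodendrocyte markers were called higher, with a summed level of 6465 to 12980 TPM in VTA, near the 9873 to 12750 TPM of NTS, and their part in the VTA levels was not tested. Of the other marker lists in VTA, 1 of 5 astrocyte, 4 of 5 cerebellar granule cell, and 1 of 8 neuron markers were called lower, and 1 of 5 microglia, 1 of 5 endothelial, 2 of 6 pituitary, and 1 of 8 neuron markers higher. The neuron marker called higher was Slc17a6, the vesicular glutamate transporter of many subcortical neurons (2.08 ± 0.34), and the one called lower was Slc17a7, that of cortical neurons (−4.67 ± 0.56), both named after their values were seen. Against NTS and DVC, for which 8 members were also higher, the median log2 fold change of the oligodendrocyte list was 0.00.

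Transcript-level values gave a further difference. The Aldh1a1 transcript that starts downstream of the others took 72.6%, 64.2%, and 68.8% of the Aldh1a1 TPM in VTA replicates 1 to 3 and 44.9% to 57.5% in the 54 other adult libraries. The VTA libraries did not overlap the others. The VTA mean was 68.5 ± 4.195% (SD, n = 3), and the next regions were FRP with 55.1 ± 0.675% and ACB with 55.1 ± 1.67% (n = 3 each). CBN, with a similar gene level, was at 47.7 ± 1.55% (SD, n = 3). This difference was seen in the data and is given as a description, with no test. The share rests on the authors' assignment of short single reads to overlapping transcripts. Such assignment was unstable for Ddc, where transcripts from the upstream start took 14.97%, 69.3%, and 29.0% in VTA replicates 1 to 3, so Ddc transcripts were not compared.

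**Figure D4:**
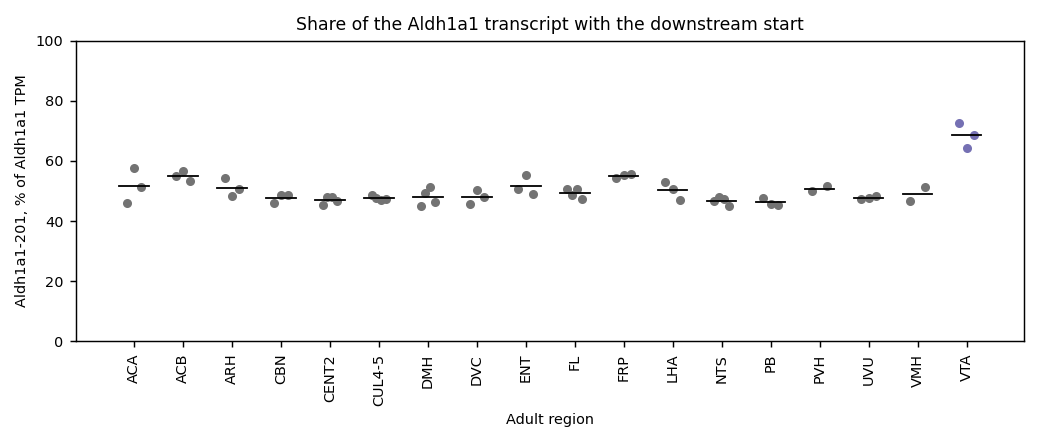
Share of Aldh1a1 TPM on the transcript with the downstream start, in percent, in each adult library (points) with the mean of each region (horizontal lines), for libraries with at least 5 TPM of Aldh1a1. The VTA points lie between 64.2% and 72.6%, above all other regions.

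The last comparison set the embryonic midbrain, where dopamine neurons form, against F, H, and THy/PHy at E14.5. In M, 3 members were called higher (edgeR, 1.87% of all genes). Pitx3 was at 9.63 and 10.1 TPM in the M replicates, 0 in all H libraries, 0.0612 TPM in F, and 0.719 TPM or less in THy/PHy, a log2 fold change of 6.45 ± 0.94 (adjusted p = 3.2e-06) from 86 and 58 estimated counts in M. Slc6a3 was at 3.67 and 1.55 TPM in M and 0.296 TPM or less elsewhere (4.44 ± 0.48, adjusted p = 1.04e-09), and this call was lost in a fit of embryonic libraries alone, at a fold of the same size (4.46, edgeR adjusted p = 0.0762). Ddc was at 26.8 and 32.3 TPM in M and at 25.8, 21.4, and 25.8 TPM in THy/PHy, so its call (2.11 ± 0.47) rests on F and H, with 3.29 to 4.78 TPM.

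Th itself was not called in M (1.00 ± 0.52, adjusted p = 0.196). M held 25.8 and 21.04 TPM, within the 24.5, 18.7, and 32.5 TPM of THy/PHy, while F was at 5.59 TPM and H at 3.01 to 10.7 TPM. Slc18a2 was at 4.77 and 11.5 TPM in M, beside 16.9, 11.1, and 17.4 TPM in THy/PHy and 29.1 TPM in the single F library (−0.85 ± 0.53). Nr4a2 was at 24.7 and 35.8 TPM in M, and H overlapped it with 14.2, 27.7, and 27.4 TPM (1.16 ± 0.52). Ret was at 5.85 and 7.12 TPM, and Aldh1a1 at 2.43 and 0.442 TPM, from 41 and 7.50 estimated counts, and neither was called (0.25 ± 0.27 and 1.16 ± 0.43). The median of the members was 1.16, and of all genes 0.00. M replicate 2 also held the serotonin neuron factor Fev at 10.4 TPM and Slc6a4 at 12.7 TPM, against 0.135 and 0.531 TPM in replicate 1. Of the 10 midbrain dopamine neuron factors, 7 were called higher in M, with Foxa2 (7.69 ± 0.79), En2 (6.35 ± 0.44), and En1 (5.55 ± 0.55) first and a median of 2.23. Of the 14 receptors, channels, and peptides, 2 were, Chrna6 (5.42 ± 0.89) and Gucy2c (2.78 ± 0.50), with a median of 0.73. Of 4 serotonin genes 3 were called higher in M, where replicate 2 held most of their transcripts, and their part in the M levels of Ddc and Slc18a2 was not tested. Gch1 (1.53 ± 0.42) and the Ret ligand Nrtn (1.98 ± 0.70) were called higher as well.

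In mESC, Ddc was the member with a clear level, at 35.3 and 44.4 TPM in B6-1 and 40.7 and 32.9 TPM in B6-2, without Th, which was at 0.256 TPM or less. The other members were at 1 TPM or less in the means of both clones. All 4 Ddc values were above those of the embryonic regions, although stage, batch, and culture differ between these groups.

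Profiles over the 24 group means, as log2(TPM + 1), were compared between genes by Pearson's r, as a description over 19820 genes with at least 1 TPM in a group. The nearest gene to Slc6a3 was Gucy2c (r = 0.958), to Pitx3 was Foxa2 (0.950), to Aldh1a1 was Pygm (0.984), and to Ret was Gabrr2 (0.901). Gch1 was nearest to both Ddc (0.793) and Slc18a2 (0.849). Lrrc55 (0.782) was nearest to Th and March4 (0.745) to Nr4a2. The next 2 genes were C1ql2 and Fam196b for Th, Tmem207 and Rps12l1 for Slc6a3, St8sia6 and C1ql2 for Ddc, Slc10a4 and Cubn for Slc18a2, Ttc6 and Tmem207 for Pitx3, Rfng and Cbfa2t3 for Nr4a2, Sgpp2 and Smad9 for Aldh1a1, and Pdxdc1 and Hebp2 for Ret. These lists depended on the groups used. Over the 18 adult regions alone, 2 of the 3 nearest genes were shared for Ddc, 1 each for Slc6a3, Slc18a2, Pitx3, and Aldh1a1, and 0 for Th, Nr4a2, and Ret. Among the members, r over the 24 groups was highest for Aldh1a1 with Ret (0.804) and for Th with Slc18a2 (0.747). Over the 17 adult regions without VTA, Ddc and Slc18a2 had an r of 0.837, Aldh1a1 and Ret of 0.850, and Th and Nr4a2 of −0.320. These values share libraries and are not independent of each other.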

How the data were processed

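Gene expression was measured by RNA-Seq of poly(A) RNA in 70 mouse libraries, read for 33 cycles from 1 end. The authors quantified transcripts with Kallisto against the GRCm38 Ensembl cDNA set and deposited estimated counts per transcript and TPM per gene and transcript (CASAVA 1.8.2 is named in the submitters' processing notes). Estimated counts deposited by the authors were summed per gene (107899 of 109282 transcripts matched a gene, and 0.432% to 0.788% of counts per library did not) and rounded. Library groups came from the GEO labels. The quasi-likelihood test of edgeR 4.0.16 (R 4.3.3) was run on all 70 libraries in 1 model, with low genes removed by filterByExpr, TMM scaling, and Benjamini-Hochberg adjustment over 19960 genes. Genes were called where the adjusted p was below 0.05 and the change exceeded 1 on the log2 scale in size. DESeq2 1.42.0, limma 3.58.1 on log2(TPM + 0.5) and log2(TPM + 0.1), library totals without TMM, a replicate block, left-out libraries, and another reference were alternatives. The scripts were tested on simulated data. Levels in TPM depend on the transcript lengths that the authors' assignment chose. Short transcripts weigh on it, such as Th-205, and counts are free of this. Some genes of the lists of related genes are not reported here and were left out of the counts and medians. The members and gene lists were chosen with earlier results of these data known. Named genes are the 8 members, the genes leading each list by fold change, and the 3 genes of most similar profile to each member.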

Additional observations from a re-analysis of the deposited data

Results flagged for a closer look

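In groups of 4 libraries, a library far from the other 3 was looked for in 40 combinations of member and region by Dixon's test at the 95% level, and 4 were found, where chance gives about 1 in 20. Th was at 21.5 TPM in NTS replicate 2, against 6.496 to 7.41 TPM in the other NTS libraries. The same library held Dbh at 20.7 TPM and Slc6a2 at 8.63 TPM, against 3.38 to 6.71 TPM and 0.408 to 1.08 TPM in the others, and their part in the Th level was not tested. Ret was at 27.3 TPM in FL replicate 4, against 15.8 to 16.3 TPM. Pitx3 was at 0.43 TPM in NTS replicate 3 and at 0.0857 TPM in FL replicate 2, with 0 in the other libraries of each region, from 3 and 1 estimated counts. With 3 libraries at 0, any value above 0 is found by this test, so the chance rate does not apply to these 2.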

How the results depend on the processing

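The number of members called higher stayed at 8 for VTA against the other adult regions and against ARH under every alternative run, and ran from 7 to 8 against NTS and DVC and from 2 to 4 for M. Against all other adult libraries as 1 group, 0 members were called higher in ARH (4 otherwise) and 0 in NTS and DVC (2 otherwise). That reference gives VTA its full weight, and the standard errors were larger with it as well. The log2 fold changes in ARH became −0.21 ± 1.43 for Th, −2.295 ± 2.78 for Slc6a3, and −0.769 ± 1.04 for Ret. That of Pitx3 in NTS and DVC became −2.587 ± 1.41. Other values that changed sign were those of Nr4a2, Ddc, Pitx3, Aldh1a1, and Ret, as follows. Nr4a2 in ARH went to 0.041 with library totals and −0.302 to 0.202 with 1 library left out (0.202 without ARH replicate 2). Ddc in NTS and DVC went to 0.106 without the 5 libraries with genes of neighbouring tissue (chosen after seeing the data). Pitx3 in NTS and DVC went to −0.066 with limma on log2(TPM + 0.5) and −1.126 to 0.486 with 1 library left out. The value of −1.126, without NTS replicate 3, had a standard error of 2101.644, so its sign cannot be read. Aldh1a1 in M went from 1.16 to −0.311 without M replicate 1 (up to 1.841 without M replicate 2). Ret in M went to −0.064 without F (−0.065 to 0.423 with 1 library left out). The cause was not tested. Leaving out 1 library at a time gave 8 to 8, 4 to 4, 2 to 2, 8 to 8, 8 to 8, and 3 to 4 members higher in the 6 comparisons as listed in the report's order of tests (VTA, ARH, NTS and DVC, VTA against ARH, VTA against NTS and DVC, M). The call of Aldh1a1 in ARH was lost with library totals (−0.94) and limma (−0.98). It was also lost without ARH replicate 3 (−0.88) and against all other adult libraries as 1 group (−2.03 ± 1.01, edgeR adjusted p = 0.19). Gene counts moved more than the members: 1378 genes higher and 727 lower in VTA became 347 and 1899 with limma on log2(TPM + 0.5), 408 and 2726 on log2(TPM + 0.1), 434 and 118 against 1 group, and 1021 and 1044 with library totals. Genes higher fell from 1712 to 610 in ARH and from 1120 to 396 in NTS and DVC against 1 group, to 504 and 712 in NTS and DVC with limma at the larger and smaller pseudocount, from 1595 to 561 and 617 and from 749 to 213 and 260 in the direct comparisons of VTA with ARH and with NTS and DVC, and from 373 to 50 in M with embryonic libraries alone. With library totals the splits were 2120 and 572 in ARH (1712 and 782 otherwise), 963 and 2777 for VTA against ARH (1595 and 1635), and 543 and 654 for VTA against NTS and DVC (749 and 486). The VTA share of Nr4a2 was 11.5% in TPM and 15.1% in counts scaled to library totals, and that of Aldh1a1 15.5% and 20.8%.

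Same-numbered replicates were not paired in the main fit. The correlation of their deviations from the group means ran from −0.195 to 0.142. Serial numbers in the sample labels do not follow the replicate numbers across regions. Neither these correlations nor a block on replicate number can therefore show whether libraries shared mice or batch. With the replicate number as a block, 8, 4, 2, 8, 8, and 3 members were called higher in the same order, and 1348 genes were higher in VTA. Pitx3 and Slc6a3 had few counts in most groups other than VTA, which limits the precision of their fold changes there.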
